A study of Mus musculus with 8 samples.

Results

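The regions described here separate adult Lgr5 stem cells (ISC) from the E14.5 intestinal epithelium of the mouse by the presence of MBD peaks. They were the 14431 autosomal regions that had a peak in both libraries of one group and in neither library of the other, among 163726 regions formed from equally long peak lists of these 4 libraries. Of them, 7502 were called in ISC only and 6929 in E14.5 only. A region is a stretch of the mm9 genome in which peaks of any of the 4 libraries shared at least 1 bp. To make the lists equally long, each was reduced to its 84990 autosomal peaks with the highest score, the caller's p-value on a negative logarithmic scale.

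The ISC were EGFP-high cells sorted from the small intestine of males at postnatal day 60 that carried the Lgr5EGFP-Cre-ERT allele, and the E14.5 cells were EpCAM-positive, CD31-negative and CD45-negative small intestinal cells of embryos. Enterocytes, taken from the same adult line with the EpCAM gate, and E12.5 epithelium, taken as at E14.5, served for comparison. Each of the 4 groups had 2 biological replicates of mixed C57BL/6 CD1 strain, with 1 µg of DNA each. The sex of the embryos is not given in the labels, and neither is whether a replicate was 1 animal or a pool. The ISC gate depends on EGFP under Lgr5, so stem cells in which the reporter is silent are not sampled. Peaks of methylated DNA do not measure expression, so cell identity could not be checked against marker genes.

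DNA methylation in mammals is placed mostly on cytosines that precede guanine and is copied to daughter cells by maintenance methyltransferases, while de novo methyltransferases add it at new sites and TET enzymes start its removal. In the gut, the epithelium at E14.5 is still fetal, before crypts exist, and the Lgr5 stem cells of the adult crypt base later renew the whole epithelium, enterocytes of the villus included. MBD sequencing pulls down fragments by their density of methylated CpGs, so a peak reports relative enrichment and gives no percent methylation.

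Depth was similar in the 4 libraries, with 32423813 and 31438314 tags in ISC and 34567645 and 34889223 tags in E14.5. The deposited autosomal lists were of different length, with 203067 and 281760 peaks in ISC and 314082 and 336963 at E14.5. Peaks of the second E14.5 library were the narrowest, with a median of 384 bp among the peaks kept, against 583, 686 and 629 bp in the first and second ISC and the first E14.5 library. The enterocyte and E12.5 libraries were deeper, yet only 9.79% and 7.41% of the tags of the E12.5 libraries lay in autosomal peaks, against 23.7% to 38.8% in the other 6.

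With lists of equal length, the regions called in adult stem cells only and in the fetal epithelium only were similar in number. The regions called in ISC only were 4.58% of the 163726, and those called in E14.5 only were 4.23%. Of the 49046 regions called in both ISC libraries, 15.3% were ISC only, and of the 46333 called in both E14.5 libraries, 15.0% were E14.5 only. Peaks of all 4 libraries met in 26787 regions. ISC-only regions made up 52.0% of the regions that separated the groups. Replicates of a group overlapped in part: of the regions called in any ISC library 40.9% were called in both, and at E14.5 38.2%. Presence was counted without a test, since an exact permutation of 2 libraries against 2 cannot reach 0.05. Leaving out a library removes a requirement from its group and so changes the balance: ISC-only regions made up 65.8% and 65.1% of the separating regions without the first and second ISC library, and 38.0% and 35.8% without the first and second E14.5 library.

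The full lists gave another balance. Over 465967 regions, 9916 were called in ISC only (2.13%) and 33667 in E14.5 only (7.23%), so that ISC-only regions made up 22.8% of those that separated the groups. Both E14.5 lists are longer than both ISC lists, and list length and group cannot be told apart here. With lists of equal length and all 4 libraries, ISC-only regions made up 49.3% of the separating regions when each peak was replaced by 100 bp on either side of its summit, and 60.5% when presence needed peaks over at least 50% of the region's length.

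The threshold fell among peaks of equal score. The lowest-scoring peak kept and the highest-scoring peak left out had the same score in each list, 80.93 and 109.67 in the 2 ISC libraries and 112.98 and 115.76 in the 2 E14.5 libraries, and ties were broken by the fold. In the first ISC library the lowest peak kept held 31 tags and the highest left out 34.

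Most of the separating regions held a weaker peak in the other group. A weaker peak here is one left out of the shortened list of its own library. The lowest score kept ranged from 80.93 in the first ISC library to 115.76 in the second E14.5 library. A weaker E14.5 peak could therefore outscore a kept ISC peak. Of the 7502 ISC-only regions, 4909 had a weaker peak in both full E14.5 lists, 1900 in 1 of them and 693 in neither. Of the 6929 E14.5-only regions, 3331 had a weaker peak in both full ISC lists, 2803 in 1 and 795 in neither. The first ISC library, which has the shortest list of the 4, had a peak at 54.3% of the E14.5-only regions and the second at 82.3%. At the ISC-only regions the E14.5 libraries had one at 80.5% and 75.7%. The median tags at ISC-only regions were 41 and 50 in the ISC libraries, and 34 and 25 in the weaker E14.5 peaks where these existed. At E14.5-only regions they were 46 and 38 in the E14.5 libraries, and 27 and 33 in the weaker ISC peaks.

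**Figure D1:**
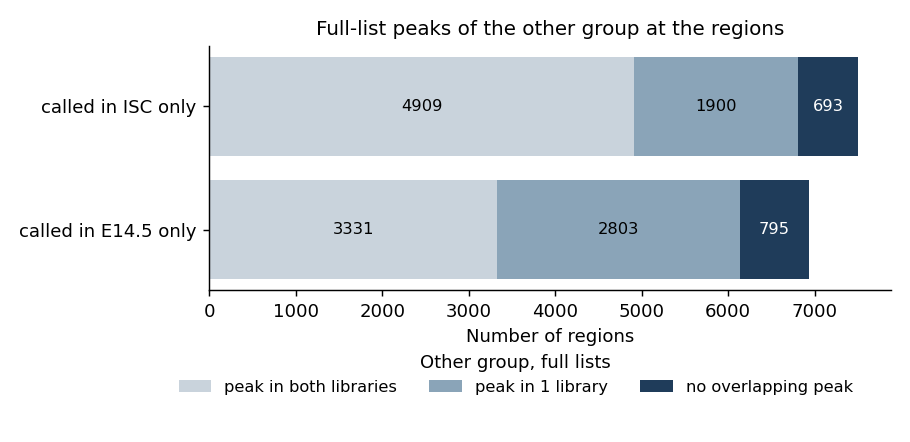
Bars give the number of regions called in ISC only and in E14.5 only with equal lists, divided by whether the full lists of the other group hold an overlapping peak in both libraries, in 1 or in none. The dark ends, 693 and 795 regions, have none.

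The 693 and 795 regions with no overlapping peak in the full lists of the other group are called strict below. They were 9.24% of the ISC-only and 11.5% of the E14.5-only regions. With 1 library of either group left out, a looser rule, there were 1853 to 3754 strict ISC-only and 1578 to 5778 strict E14.5-only regions. The nearest peak of the other group lay at a median distance of 1435 bp from a strict ISC-only region and 1839 bp from a strict E14.5-only region. With a margin of 500 bp, 556 and 664 of them remained, and 60 and 135 had no peak of the other group within 5 kb. All these values were taken against the full lists of the other group, and both ISC lists are shorter than both E14.5 lists. A difference between the 2 directions cannot be told apart from list length here. Strict regions were about as long as all separating regions. Their median length was 704 bp for ISC only and 541 bp for E14.5 only, against 699.5 bp and 543 bp for all separating regions. For all regions called in both libraries of the group it was 819 bp and 769 bp.

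Separating regions were mostly the lower-scoring ones of their group. The score that ranks them here also cut the lists, and near the cut a partner in the other group is easily lost. The shares below therefore describe the lists and test nothing. For each group, regions with peaks in both of its libraries were placed in 10 classes of equal size by the lower of their 2 score percentiles. In the weakest class 28.1% of the ISC regions were ISC only, and in the strongest class 1.83%. For E14.5 the shares were 31.2% and 0.906%. Strict regions fell less steeply, from 2.26% to 0.489% for ISC and from 3.45% to 0.453% for E14.5, so that 24 of the 90 ISC-only and 21 of the 42 E14.5-only regions in the strongest classes were strict.

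**Figure D2:**
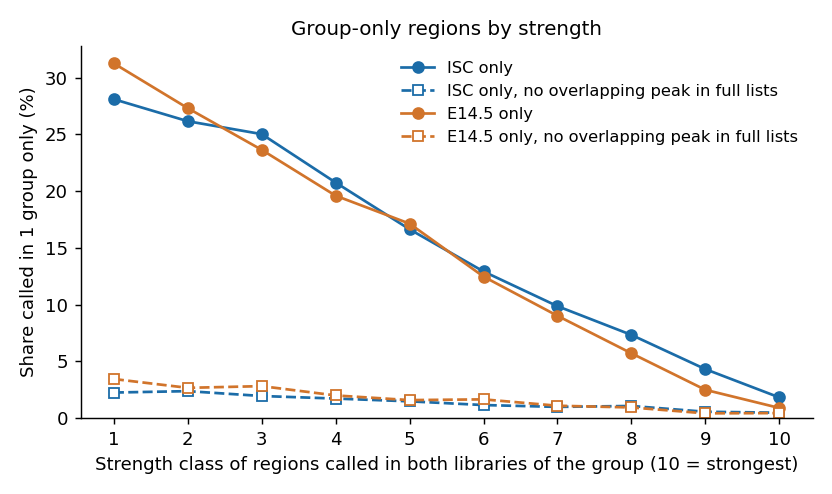
Share of a group's regions, those with peaks in both its libraries, that were called in that group only (vertical axis, percent), by strength class (horizontal axis, 1 is the weakest and 10 the strongest). Solid lines give all separating regions, which fall from 28.1% to 1.83% in ISC, and dashed lines those with no overlapping peak in the full lists of the other group.

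Both kinds of region were spread over all 19 autosomes. ISC-only regions made up between 4.29% of the regions of chromosome 1 and 5.14% of those of chromosome 8. E14.5-only regions ranged from 3.85% to 4.65% on the same 2 chromosomes. ISC-only regions were between 49.4% (chromosome 15) and 55.0% (chromosome 5) of the separating regions of a chromosome.

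The strongest strict ISC-only regions are given by mm9 position, since no annotation of that build was used here and none was assigned to a gene, exon, intron or UTR. The region with the highest rank was chr13:55926152-55928486 (2335 bp). Its strongest peak had 179 and 245 tags in the ISC libraries and 245 and 247 in the enterocyte libraries, and the E14.5 and E12.5 libraries had no peak. Scaled to 1000000 tags of each library (scaled tags from here on) these were 5.52 and 7.79 in ISC and 5.65 and 6.31 in enterocytes, so the 2 adult cell types overlapped. Tags not called scaled are raw counts, and the enterocyte and E12.5 libraries were deeper. The caller's fold over the local background, the authors' value, was 6.76 and 6.29 in ISC. The nearest E14.5 peaks lay 1792 and 5780 bp away.

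The second, chr12:58649869-58652254 (2386 bp), reached 176 and 230 tags in the ISC libraries, against 288 and 344 in enterocytes. In scaled tags these overlapped, with 5.43 and 7.32 against 6.64 and 8.79. The nearest E14.5 peaks lay 15045 and 7130 bp away. The third, chr5:120117696-120119432, had 154 and 187 tags in the ISC libraries, against 281 and 258 in enterocytes (scaled 4.75 and 5.95 against 6.48 and 6.59). An E14.5 peak in 1 library lay only 180 bp from this region, so it would not pass a margin of 500 bp. The widest of the 10 was chr3:86349913-86352498 (2586 bp), sixth in rank. It had the most tags in ISC, 205 and 286, with 306 and 301 in enterocytes, and its nearest E14.5 peaks lay 13298 and 3634 bp away.

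The other 6 held fewer tags. At chr3:148087144-148088191 the ISC libraries had 87 and 114 tags, the enterocyte libraries 204 and 199, with an E14.5 peak 344 bp away in 1 library. In scaled tags these were 2.68 and 3.63 against 4.71 and 5.08. At chr10:127101045-127102253 the values were 82 and 103 in ISC and 95 and 124 in enterocytes. In scaled tags they overlapped, with 2.53 and 3.28 in ISC and 2.19 and 3.17 in enterocytes. The fold values of this region in ISC were 10.18 and 11.62. The region chr8:107791367-107793073 had 110 and 156 tags in the ISC libraries, against 158 and 156 in enterocytes. These also overlapped in scaled tags, with 3.39 and 4.96 against 3.65 and 3.99. At the remaining 3, chr9:77962989-77963870, chr5:122295917-122296806 and chr16:45408105-45409320, the ISC libraries held 73 and 79, 76 and 88, and 75 and 107 tags. All 10 regions had a peak in both enterocyte libraries and none in either E12.5 library, and so had the 40 that followed in rank. A peak in both enterocyte libraries was also found at 91.0% of all regions called in both ISC libraries, and at 78.1% of the strict ones. No peak in either E12.5 library was found at 27.1% and 86.3%. Which regions rank highest depends on the score: ranking by the caller's fold kept 1 of the 10 ISC-only regions above, and 0 of the 10 E14.5-only regions described next.

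The strongest strict E14.5-only regions had the reverse pattern. At chr4:45815146-45816926 (1781 bp) the strongest peak held 215 and 241 tags in the E14.5 libraries and 161 and 36 in the E12.5 libraries, with none in ISC or enterocytes. In scaled tags these were 6.22 and 6.91 at E14.5 and 2.91 and 0.649 at E12.5. The 2 E12.5 libraries differed from each other more than the 2 E14.5 libraries did. The nearest ISC peaks lay 2017 and 1875 bp away.

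The second in rank, chr17:14509057-14510239, held 123 and 126 tags at E14.5 and 81 and 64 at E12.5. The third, chr7:19590334-19591387, held 87 and 93 tags at E14.5 and 44 and 33 at E12.5, with fold values of 11.15 and 11.28 at E14.5. At chr15:98434027-98435259 the E14.5 libraries held 135 and 128 tags, and 1 of the 2 E12.5 libraries had a peak, with 58. The fifth, chr6:21960080-21961053, held 112 and 86 tags at E14.5 and 95 and 104 at E12.5. In scaled tags it was lower in the deeper E12.5 libraries, with 1.72 and 1.88 against 3.24 and 2.46.

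The other 5 were between 587 and 917 bp long. The regions chr1:173098899-173099517, chr8:89001284-89001911 and chr7:134415776-134416479 held 65 and 61, 66 and 61, and 68 and 70 tags at E14.5, and each had peaks in both E12.5 libraries. At chr16:91727131-91728047 the values were 96 and 84 at E14.5 and 83 and 58 at E12.5. At chr19:40700242-40700828, with 61 and 50 tags at E14.5, 1 E12.5 library had a peak, of 56 tags. None of the 10 had a peak in an enterocyte library, 9 had one in the first E12.5 library and 9 in the second. Of the 40 that followed in rank, 34 had no enterocyte peak, 5 had one in both enterocyte libraries, 20 had an E12.5 peak in both libraries and 4 in neither.

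**Figure D3:**
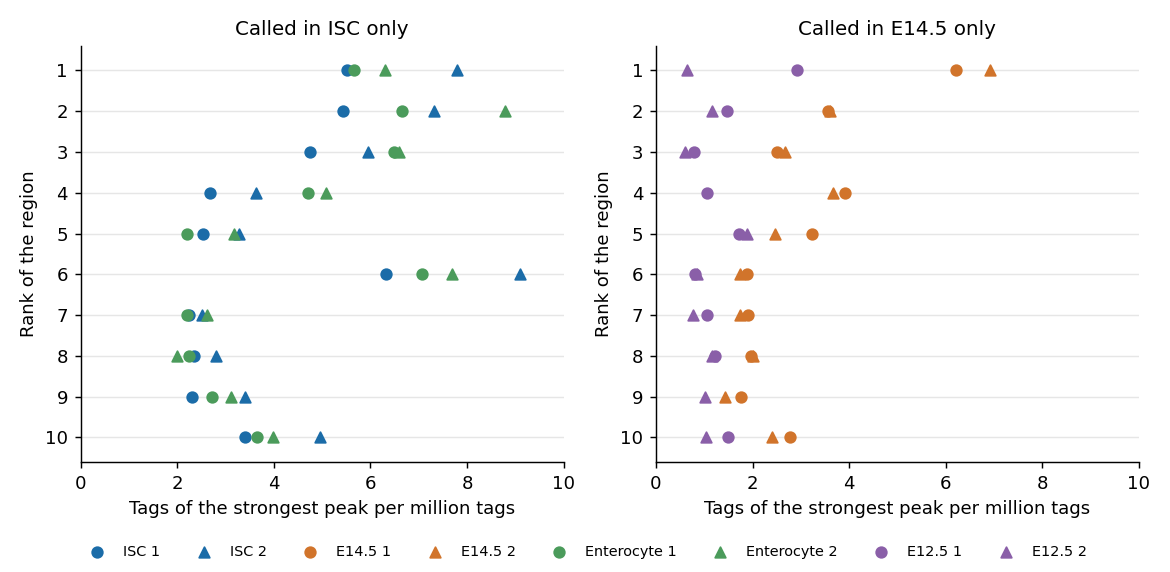
Tags of the strongest peak, scaled to 1000000 tags of the library (horizontal axis) for the 10 highest-ranking strict regions of each direction (vertical axis, rank 1 to 10), one symbol per library with a peak. The ISC-only regions carry ISC and enterocyte symbols alone, and the E14.5-only regions carry E14.5 and E12.5 symbols alone.

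The peaks of the enterocyte and E12.5 lists were not used to choose the separating regions. The list length of 84990 did come from them, as the number of peaks in the second E12.5 list. Strict ISC-only regions had a peak in the first and second enterocyte library at 82.4% and 91.6%, and in the E12.5 libraries at 8.80% and 6.78%. For all regions called in both ISC libraries these were 93.1% and 96.9% in enterocytes and 58.3% and 50.8% at E12.5. Strict E14.5-only regions had a peak at 27.9% and 37.2% in enterocytes, against 89.5% and 94.7% for all regions called in both E14.5 libraries, and at 41.0% and 35.3% at E12.5, against 59.7% and 52.7%. In both directions the second enterocyte library gave the higher share, and its autosomal list was longer, with 231707 peaks against 163882. The first E12.5 library gave higher shares than the second, with 100117 peaks against 84801. With the enterocyte lists shortened to 84990 peaks as well, an alternative added after the data were seen, strict ISC-only regions had a peak in them at 59.2% and 63.2%, against 78.0% and 79.5% for all ISC regions, and strict E14.5-only regions at 13.6% and 9.69%, against 72.8% and 74.3%. These shares are descriptions, and strict regions were also weaker than the whole group, with median percentiles of 78.9 and 82.9 in the ISC libraries against 85.3 and 88.9.

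Regions with a weaker peak in the other group had other shares. Of the 4909 ISC-only regions with a peak in both full E14.5 lists, 36.5% and 30.3% had an E12.5 peak in the first and second library, and 83.1% and 91.9% an enterocyte peak. Of the 1900 with a peak in 1 E14.5 list, 27.6% and 22.2% had an E12.5 peak and 78.7% and 88.7% an enterocyte peak, the latter below both the strict and the whole group's shares. Of the 3331 E14.5-only regions with a peak in both full ISC lists, 71.8% and 87.7% had an enterocyte peak and 40.5% and 35.8% an E12.5 peak. Of the 2803 with a peak in 1 ISC list, 64.5% and 79.2% had an enterocyte peak and 35.4% and 30.8% an E12.5 peak. At E12.5 the 3 kinds of E14.5-only region thus had similar shares, all below the 59.7% and 52.7% of the whole group.

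**Figure D4:**
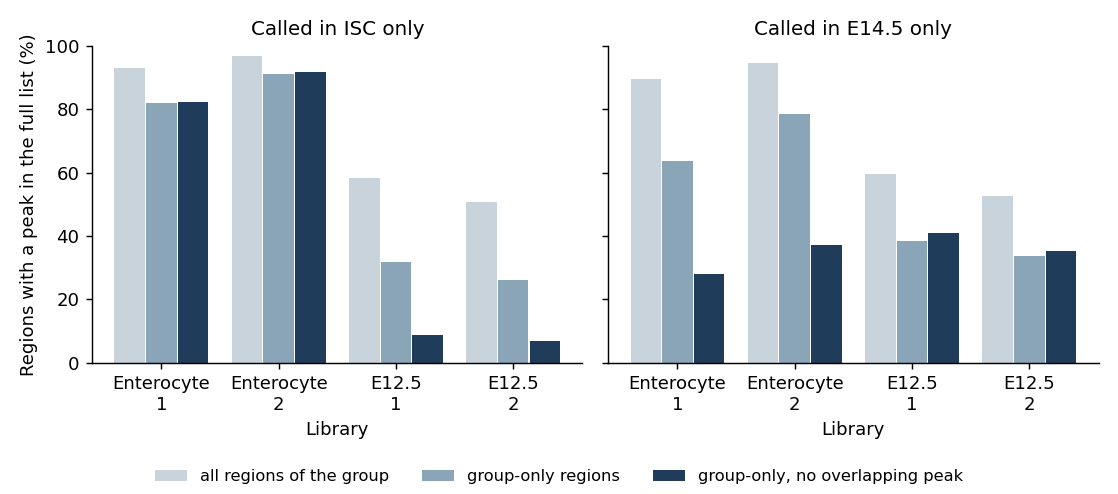
Share of regions with a peak in the full list of each enterocyte and E12.5 library (vertical axis, percent), for every region that both libraries of the group called, for the group-only regions, and for those with no overlapping peak in the full lists of the other group. The darkest bars are at 8.80% and 6.78% for ISC-only regions at E12.5, and at 27.9% and 37.2% for E14.5-only regions in enterocytes.

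Taking both groups together, 473 of the 693 strict ISC-only regions (68.3%) had a peak in both enterocyte libraries and in no E12.5 library, against 22.4% of all regions called in both ISC libraries. A peak in neither group was found at 26 (3.75%), against 0.622% of all, so that among the 8 lists they were called in ISC alone. The strongest of these 26 was chr8:69137433-69137999, with 36 and 40 tags in ISC. The lower of its 2 percentiles, 80.4, was well under the 99.9 of the strongest region overall. Another 11 had a peak in all 4 enterocyte and E12.5 libraries, and the strongest of those was chr12:85414804-85415515, with 42 and 54 tags in ISC, 68 and 68 in enterocytes and 27 and 40 at E12.5.

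Of the 795 strict E14.5-only regions, 405 (50.9%) had a mixed pattern, with a peak in 1 library of at least one group. Among the rest, 166 (20.9%) had no peak in either enterocyte or E12.5 libraries, against 1.24% of all regions called in both E14.5 libraries. A peak in both E12.5 libraries and no enterocyte library was found at 116 (14.6%), against 0.602% of all. A peak in both enterocyte libraries and no E12.5 library was found at 86 (10.8%), below the 19.1% of all, and 22 (2.77%) had a peak in all 4, against 35.0%. The strongest of the 166 was chr5:100938189-100938735, with 52 and 43 tags at E14.5. The strongest of the 86 was chr4:130910869-130911733, with 72 and 54 tags at E14.5 and 46 and 55 in enterocytes, called in the fetal epithelium and in enterocytes but not in the ISC libraries. The low share of tags in peaks at E12.5 moves with every missing E12.5 peak, and its part in these counts was not tested.

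Some separating regions lay in stretches. Chaining regions of one direction that lay within 50 kb of each other, a distance chosen after the values were seen, gave 291 stretches of 3 or more ISC-only regions and 186 of E14.5-only regions. There were 28 and 7 with 5 or more. Stretches of other regions were not counted, so these numbers do not show that separating regions cluster more than others. The largest number of members in an ISC-only stretch was 8, found at 2 stretches. One lay on chromosome 18 over 175 kb, among 13 regions called in both ISC libraries. In it, 7 members had a peak in both enterocyte libraries. The other was chr15:74691579-74802240, over 111 kb, among 11 such regions. All its members had a peak in both enterocyte libraries and none was strict. Of all ISC-only regions 76.6% had a peak in both enterocyte libraries, and of all regions called in both ISC libraries 91.0%. The ISC tags of the 8 members on chromosome 15 ran from 26 to 72. The most strict regions in an ISC-only stretch were 3, of 4 in both cases. These stretches were chr7:137325730-137406877 (81.1 kb, 9 regions called in both ISC libraries) and the shorter chr11:11688926-11731086 (42.2 kb, 5 such regions). The 3 on chromosome 11 held 38 and 47, 55 and 87, and 35 and 51 tags in ISC, with enterocyte peaks at each and no E12.5 peak.

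The E14.5-only stretch with the most members, chr4:45705506-45816926, had 7 regions over 111 kb, among 9 called in both E14.5 libraries. It ended in the strongest strict E14.5-only region. Only that region and its neighbour chr4:45800885-45801509, with 48 and 45 tags, were strict. The other 5 had ISC peaks of 25 to 82 tags. At chr15:97683211-97790470, 8 regions over 107 kb were called in both E14.5 libraries and 5 of them were E14.5 only. Of these 5, 3 were strict, with 58 and 32, 84 and 69, and 66 and 78 tags at E14.5 and no enterocyte peak.

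The regions called in all 4 libraries allow a test of the tags themselves, since each has a count in every library. Over the full lists there were 112708. They include no strict region, but they do include the separating regions that had a weaker peak in both libraries of the other group. At an adjusted p of 0.05 (edgeR quasi-likelihood test, Benjamini-Hochberg) no region was higher in ISC and none at E14.5, 0 and 0% of those tested. The smallest adjusted p of this edgeR test was 0.158. On simulated counts the test found 11 of 100 planted 2-fold changes and 93 of 100 planted 4-fold changes. Every simulated region had the same variation between replicates, so these shares may not hold for the data. Most 2-fold differences could be missed. Differences over 4-fold could be missed too: chr7:56597881-56599282, with a log2 fold change of 2.57, was not called. The 0 calls therefore do not show that there were no differences. At an unadjusted p of 0.05 the same test had 6273 regions, 5.57% of those tested, with 4011 higher in ISC and 2262 at E14.5. This balance depended on the setting. With tags per covered base, 1443 regions were higher in ISC and 413 at E14.5. Where the bases covered by peaks differed less than 1.5 times between libraries, 605 of 27781 regions were higher in ISC and 800 at E14.5. DESeq2 called 23 higher in ISC and 4 at E14.5, among the 64635 regions to which it gave an adjusted p. Of the log2 fold changes, 5% lay below -0.54 and 5% above 0.64, and 1562 regions differed by more than 2-fold, 1160 of them higher in ISC and 402 at E14.5. The replicates varied by 19.0% (biological coefficient of variation). The number of calls changed when a library was left out, where the lone library of a group is assumed to vary like the 2 of the other: without the first ISC library the test called 31 regions higher in ISC and 3 at E14.5, without the second 13 and 5, and without either E14.5 library 0 and 0.

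**Figure D5:**
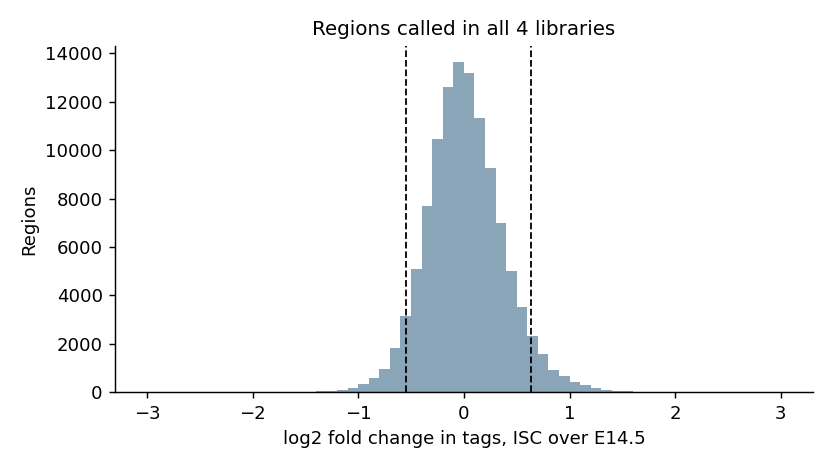
Histogram of the log2 fold change in tags, ISC over E14.5 (horizontal axis), of the 112708 regions called in all 4 libraries (vertical axis, regions per bin). Dashed lines mark -0.54 and 0.64, with 5% of the regions below the first and 5% above the second.

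The 4909 ISC-only and 3331 E14.5-only regions with weaker peaks in both libraries of the other group all lay in regions tested. Their median log2 fold change was 0.53 for ISC only, with 5% below 0.01 and 5% above 1.21, and -0.47 for E14.5 only, with 5% above -0.08. Of the 4909, 4687 were higher in ISC, and of the 3331, 3236 were higher at E14.5, so not all went in the named direction. In all, 549 of the ISC-only regions were over 2-fold higher in ISC and 166 of the E14.5-only regions over 2-fold higher at E14.5. The lists that chose these regions come from the same tags, so these values describe the size of the difference and test nothing.

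No region met the rule for naming by tags, and the following were chosen after their values were seen. The smallest p belonged to chr12:112511479-112514743, with 260 and 316 tags in ISC and 60 and 56 at E14.5. The ISC and E14.5 libraries did not overlap, and the log2 fold change was 2.31 (SE 0.255, edgeR quasi-likelihood adjusted p = 0.158). The peaks covered 3210 and 3257 bp in ISC and only 817 and 651 bp at E14.5. Tags and the width of the called peaks thus differed together, and which follows which was not tested. Per covered base the log2 fold change was 0.51. DESeq2 called this region with an adjusted p of 5.12e-05, and over the 9 alternative fits that gave one the adjusted p ran from 5.12e-05 to 1. Enterocytes had 374 and 387 tags in their strongest peak there, and E12.5 had no peak.

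The region chr8:107782142-107783654 lies within 10 kb of the strict ISC-only region chr8:107791367-107793073. It held 99 and 158 tags in ISC and 28 and 26 at E14.5 (log2 fold change 2.23, SE 0.307, edgeR quasi-likelihood adjusted p = 0.227), and per covered base the log2 fold change was 0.65. Its DESeq2 adjusted p was 0.00343, and over the 9 alternatives the adjusted p ran from 0.00134 to 1. In the other direction the smallest p was at chr4:150098251-150099987, with 41 and 45 tags in ISC and 191 and 141 at E14.5 (log2 fold change -1.93, SE 0.27, edgeR quasi-likelihood adjusted p = 0.227). Its peaks covered 539 and 675 bp in ISC and 1690 and 1227 bp at E14.5, and per covered base the log2 fold change was -0.36. Its DESeq2 adjusted p was 0.00832, the lowest over the 9 alternatives, and the highest was 1. Enterocytes had 68 and 64 tags there and E12.5 had 86 and 108.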

How the data were processed

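The build was mm9, and the tools named were Bowtie 1.1.2, SAMtools 1.2 and bcl2fastq 1.8.4, per the submitters' processing notes. Per the file headers, MACS 1.4.2 called peaks in each library on its own, without a control, at a p cutoff of 1e-05. The tag counts per peak were used as the authors deposited them, unnormalized. The score (minus 10 times log10 of the p-value) and the fold, a ratio to local background, are the authors' values per the file headers.

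Lists were ranked by score, ties by fold, and merged at 1 bp overlap on the 19 autosomes. Merging and the tag test were tested on simulated data. For the tag test 200 changes were planted among 112708 simulated regions, all with the same variation between replicates, and it made 5 false calls. Strict regions were ranked by the lower of the group's 2 score percentiles, and the 10 highest per direction were named. Gene names were to be given only with an mm9 annotation, and none was used here. Tags in regions called in all 4 libraries were summed over peaks and tested with edgeR 4.0.16 (TMM, quasi-likelihood). In all 11 fits of this test were run, 1 main and 10 alternatives, DESeq2 1.42.0 among them, and the closing section gives their calls. For tags, the 8 regions of smallest p per direction were to be named only if past an adjusted p of 0.05. Members and lists were chosen with earlier results of these data known. No p-value is given for presence. Nothing was printed as sequence.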

Additional observations from a re-analysis of the deposited data

How the results depend on the processing

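The counts of 7502 ISC-only and 6929 E14.5-only regions stayed within 1.5 times when lists were ranked by fold, merged within 500 bp, restricted to 50% cover, reduced to summits or extended to all chromosomes. With full lists the E14.5-only count rose to 33667 and the ISC share turned to 22.8%. With lists of 50% of that length the counts were 4018 and 3572, and the share was 52.9%. The share was 49.3% with summits and 60.5% with 50% cover. Leaving out 1 replicate, which removes a requirement from one group, gave 13038 to 27398 ISC-only and 11838 to 27385 E14.5-only regions, a share of 35.8% (without E14.5 replicate 2) or 38.0% (without E14.5 replicate 1) up to 65.8%, and 1853 to 3754 and 1578 to 5778 strict regions. Strict regions called in both enterocyte libraries fell from 78.1% to 48.6% (ISC only) and from 21.8% to 4.91% (E14.5 only) when the enterocyte lists were shortened to the same length, an alternative added after the data were seen. Ranking by fold kept 1 of the 10 named ISC-only and 0 of the 10 E14.5-only regions, so the named regions depend on the score.

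The tag test called 0 and 0 regions with TMM, with library totals (which moved the median log2 fold change to 0.12), with no filter, and without either E14.5 replicate. It called 2 higher in ISC and 1 at E14.5 with tags per covered base. Where covered bases were within 1.5 times it called 4 and 4, of 27781 regions. With DESeq2 the calls were 23 and 4, of 64635 regions with an adjusted p. The fit within 1.5 times and DESeq2 covered fewer regions than the 112708 of the main test. With the replicate block the edgeR test called 16 and 2. Deviations of same-numbered replicates from their group means correlated at -0.0054 over the 20000 regions of highest mean. This gives no sign of pairing across those regions. Whether same-numbered replicates were prepared together was not tested. The 3 regions named by tags were among those called by DESeq2 and by the block (adjusted p 0.00642, 0.026 and 0.027), and none of them was called per covered base. Leaving out 1 replicate gave 0 to 31 and 0 to 5, the highest without ISC replicate 1 and without ISC replicate 2. The causes were not tested. The test covers no region lacking a peak in any of the 4 libraries, and a missing peak shows only that tags did not pass the caller's threshold.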
